A study of Homo sapiens with 2 samples.

Results

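The 47 genes described here encode regulators of chromatin that act by modifying or moving nucleosomes or by methylating DNA. They are subunits of the Polycomb repressive complexes PRC1 and PRC2, of the SWI/SNF and ISWI remodelling complexes, the histone deacetylases, and enzymes that write or remove DNA methylation. They were chosen by name, from a list, and a probe set stood for a member only if the platform annotation gave it that gene symbol alone. By this rule 44 of the 47 members were measured, among 19775 genes in all, and BMI1, RNF2 and CBX8 were not analysed here. Both samples were labelled U87, an established human glioblastoma line grown in medium with serum and transfected with a lipid reagent. The control sample carried a non-target siRNA and the other one against FOXM1, a forkhead factor that activates genes of dividing cells, and total RNA was collected at 48 hours. Each group was 1 array, so there was no replicate, no SD between samples and no test of the conditions. No clone or passage was named in the labels.

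PRC2 places a repressive methyl mark on histone H3, and PRC1 binds that mark through its chromobox (CBX) subunits and ubiquitinates histone H2A. SWI/SNF complexes slide or evict nucleosomes and oppose Polycomb at many genes, whereas ISWI complexes mainly space nucleosomes. Deacetylases remove acetyl groups from histones, DNMT3A and DNMT3B methylate DNA de novo, and the TET enzymes oxidise methylcytosine, a step towards its removal. In glioma, mutations of the genes for chromatin regulators and altered DNA methylation are well known.

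Values are MAS5 signal intensities in arbitrary units, 1 per probe set and array, and a log2 difference is the FOXM1 siRNA array less the non-target array, as labelled. A gene was read from whichever of its probe sets was brightest on average (mean of log2). The floor, the level reached by background signal, was the 90th percentile of 135 probe sets for olfactory receptor genes, at 60.8 on the non-target array and 77.7 on the FOXM1 siRNA array. Above it lay 12814 and 12446 genes. All 44 measured members exceeded both floors. As the sole available error, the log2 differences of different probe sets of a gene had an SD of 0.50 around the mean of that gene, or 1.41-fold, pooled over 5476 genes. It covers disagreement between probe sets within these arrays and not the variation between cultures.

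Checks of the labels came first. FOXM1 read 1520 on the non-target array and 1343 on the FOXM1 siRNA array, 0.884 times the control level. That log2 difference of -0.18 lay within the probe set SD, so a reduction of the siRNA target beyond that SD was not seen. CDKN2A, an inhibitor of cyclin-dependent kinases and a classical target of Polycomb repression, read 3467 and 421, and MTAP, its neighbour, read 619 and 76.3. U87 cells are known to lack both genes through a homozygous deletion. CDKN2A also exceeded the floor of 77.7 on the FOXM1 siRNA array, in a second probe set too (2241 and 110), whereas no MTAP probe set did. The 421 came from a probe set ending in _x_at, which can share probes with other transcripts, and the 110 lay not far above the floor. CDKN2B, another neighbour, read 350 and 31.8, below the floor on the FOXM1 siRNA array. The CDKN2A and MTAP signal on the non-target array therefore goes against the cell line label. That of CDKN2A on the FOXM1 siRNA array does so less clearly. Effects of the siRNA and differences in the cells themselves cannot be told apart. Markers of the labelled lineage were uneven. On the non-target and FOXM1 siRNA arrays 7 and 6 of 9 glioma and mesenchymal markers exceeded the floor. Their summed intensities were 29425 and 99919, made up mostly of VIM, CD44 and FN1. SOX2 (680 and 59.2) and S100B (87.8 and 2.21) exceeded the floor on the non-target array only. NES (54.0 and 261) did so on the FOXM1 siRNA array only, and GFAP lay below both floors. OLIG2 (270 and 266) and CDH2 (1871 and 2192) exceeded both floors and differed by less than the probe set SD. Of 9 epithelial markers 4 exceeded the floor on each array, with sums of 12848 and 1199, and the desmosome gene DSP, at 9707 and 336, accounted for most of the first sum. KRT18 was lower too (2655 and 380), whereas KRT8 (220 and 265) differed by less than the probe set SD. Of 3 endothelial markers 1 and 2 exceeded the floor, with sums of 85.1 and 245. No haematopoietic marker and no neuronal marker that was measured, 3 of each, exceeded either floor. For ACTB, the control probe set at the 3′ end was 6.79 and 4.21 times as bright as that at the 5′ end, and for GAPDH 1.26 and 1.09 times. Such a ratio rises as RNA integrity falls, and for both genes it was higher on the non-target array. The part of these differences in the results below was not tested.

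Most of the chromatin regulators were lower on the FOXM1 siRNA array, though seldom by much. Of the 44 members, 35 had a log2 difference below 0, or 79.5%, beside 49.6% of the 13865 genes detected on at least 1 array and 51.6% of the 11395 genes above both floors. Their median log2 difference was -0.43, against -0.03 over the genes above both floors. The median member thus stood at 0.745 times the control level. At least 2-fold lower were 8 members, 18.2% of them, where the share among all detected genes was 15.4%. At least 2-fold higher were 4 members, 9.09%, where that share was 16.0%. The 13865 genes include some for which no difference could be given. Over the 13449 genes with a difference, 51.1% were below 0, 15.9% at least 2-fold lower and 16.5% higher. In the main scaling the count of lower members was thus near the background, and the shift lay mainly in small differences. A further 12 members were lower and 1 was higher by more than the probe set SD without reaching 2-fold, and the other 19 lay within it. The same shares over all detected genes were not computed, so these counts have no background beside them. The 8 lower members were EED, CBX2, SMARCC1, PBRM1, HDAC1, HDAC2, DNMT3B and TET1, and the 4 higher ones PHC2, PHC3, SMARCA1 and HDAC9. The split moved with the scaling. When the added hybridisation controls were made equal, 17 members were lower and 2 higher, beside 3200 lower and 1567 higher of 13810 genes. That scaling moved the median of all genes from -0.02 to -0.30 and the median member from -0.43 to -0.73. It takes the same constant from every gene, so the distance between them could hardly change. With a loess of the difference on mean signal, which could change it, the median member was at -0.33 beside -0.01 for all genes. Without probe sets ending in _x_at or _s_at it was at -0.27 beside -0.02, and 25 of 34 members were below 0. With both arrays centred on their medians, 11 members were lower and 3 higher, beside 2643 lower and 1850 higher of 13618 genes. The probe set chosen mattered too. With the median over all probe sets of a gene, 29 members were below 0, 6 were at least 2-fold lower and 1 was higher, and the median member was at -0.21 beside 0.13 for all genes. Of 13449 genes, 44.2% were then below 0, 1483 at least 2-fold lower and 1761 higher. A probe set below both floors enters that median as the ratio of the floors, 0.35 on the log2 scale. With the median over the probe sets above at least 1 floor, an alternative chosen after seeing the data, 33 members were below 0, 6 were lower and 3 higher, and the median member was at -0.35.

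**Figure D1:**
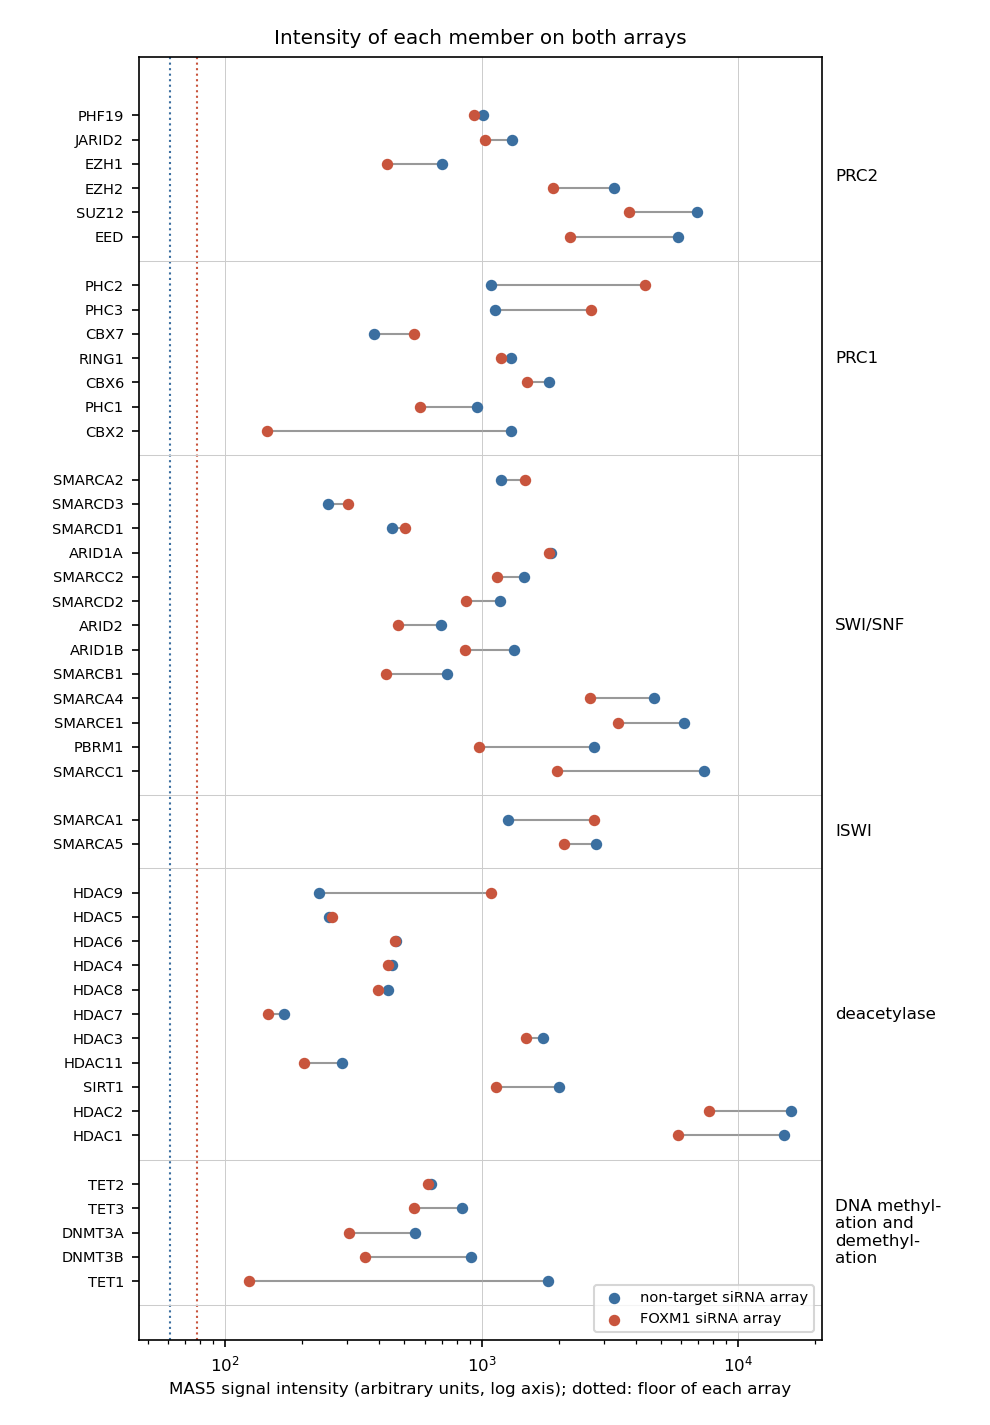
MAS5 signal intensity (log axis, arbitrary units) of the 44 measured members on the non-target siRNA array (blue) and the FOXM1 siRNA array (red), joined by a line and ordered within each complex by log2 difference; 1 array per group and no error bars. Dotted lines mark the floors of 60.8 and 77.7. TET1 and CBX2 have the longest lines to the lower side, HDAC9 and PHC2 to the higher side; levels of different genes are not comparable, since each is read by other probes.

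Where these genes start gives a picture of the DNA they share. Promoters rich in CG dinucleotides are the usual ground of Polycomb complexes and of TET1, which has a domain that binds unmethylated CG. In the RefSeq promoter table (GRCh38.p14), 39 of the measured members had 73 start sites, and the 250 bases before them held a median of 21 CG, against 11 over all 35116 starts. All starts were used whether or not their genes were detected here, and a comparison with detected genes alone was not made. Of the 12 members past 2-fold, 6 had a single start in the table. Their upstream sequences are printed on the strand of the gene, 5′ to 3′, each ending at the base before the start, with every CG in capitals, so that lower and higher members can be set side by side.
EED, lower, chr11:86244503-86244752, plus strand: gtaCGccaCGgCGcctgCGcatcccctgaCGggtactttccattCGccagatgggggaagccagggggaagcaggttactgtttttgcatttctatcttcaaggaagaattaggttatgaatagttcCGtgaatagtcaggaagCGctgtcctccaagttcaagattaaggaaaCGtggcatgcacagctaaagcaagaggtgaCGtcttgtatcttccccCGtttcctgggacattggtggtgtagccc
HDAC1, lower, chr1:32291833-32292082, plus strand: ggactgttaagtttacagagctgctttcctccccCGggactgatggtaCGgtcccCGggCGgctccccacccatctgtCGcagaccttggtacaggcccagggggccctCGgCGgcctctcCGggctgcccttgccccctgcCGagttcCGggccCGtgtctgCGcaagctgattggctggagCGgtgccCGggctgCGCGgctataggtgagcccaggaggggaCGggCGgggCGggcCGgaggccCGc
HDAC2, lower, chr6:113971149-113971398, minus strand: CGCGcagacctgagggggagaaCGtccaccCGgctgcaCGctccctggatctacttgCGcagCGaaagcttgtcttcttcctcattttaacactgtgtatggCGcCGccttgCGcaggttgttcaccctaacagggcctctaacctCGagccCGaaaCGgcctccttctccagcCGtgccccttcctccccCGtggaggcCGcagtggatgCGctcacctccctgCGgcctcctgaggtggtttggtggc
DNMT3B, lower, chr20:32779602-32779851, plus strand: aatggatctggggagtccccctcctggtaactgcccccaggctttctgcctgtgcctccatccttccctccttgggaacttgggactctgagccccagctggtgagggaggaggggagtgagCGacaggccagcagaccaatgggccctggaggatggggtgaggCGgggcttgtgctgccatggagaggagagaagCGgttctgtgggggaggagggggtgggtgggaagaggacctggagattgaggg
PHC3, higher, chr3:170181734-170181983, minus strand: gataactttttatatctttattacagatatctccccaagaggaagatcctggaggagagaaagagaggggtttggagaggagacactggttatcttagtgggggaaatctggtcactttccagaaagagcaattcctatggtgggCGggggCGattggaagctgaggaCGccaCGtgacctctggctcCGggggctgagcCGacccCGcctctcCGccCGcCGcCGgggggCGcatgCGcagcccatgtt
SMARCA1, higher, chrX:129523491-129523740, minus strand: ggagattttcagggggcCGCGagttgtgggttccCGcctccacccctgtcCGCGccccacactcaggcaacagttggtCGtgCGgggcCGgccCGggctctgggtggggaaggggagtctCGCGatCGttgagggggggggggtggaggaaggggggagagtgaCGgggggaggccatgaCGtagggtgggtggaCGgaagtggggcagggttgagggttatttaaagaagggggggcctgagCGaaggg

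The 4 lower members held 11 (EED), 21 (HDAC1), 18 (HDAC2) and 3 (DNMT3B) CG in this window, and the higher ones 13 (PHC3) and 16 (SMARCA1). Counts of both directions therefore overlapped. Motifs of cell cycle promoters were searched on both strands of the same window. These were E2F sites, as TTTGGCGC, TTTCGCGC or TTTCCCGC, the CHR element of mitotic genes, as TTTGAA, and a forkhead site, as TGTTTAC. An E2F match lay upstream of 2 of the 73 member starts, 2.74%, against 2.32% of all starts. A CHR match lay upstream of 4, 5.48%, against 13.3% of all, and a forkhead match upstream of 0, against 2.98% of all. None of the 6 sequences above held a match to any of these letters. The E2F matches belonged to PHF19 and SUZ12, and SUZ12, a PRC2 core subunit at -0.87, also had a CHR match. Its window is shown for that reason, with both matches in capitals.
SUZ12, chr17:31936757-31937006, plus strand: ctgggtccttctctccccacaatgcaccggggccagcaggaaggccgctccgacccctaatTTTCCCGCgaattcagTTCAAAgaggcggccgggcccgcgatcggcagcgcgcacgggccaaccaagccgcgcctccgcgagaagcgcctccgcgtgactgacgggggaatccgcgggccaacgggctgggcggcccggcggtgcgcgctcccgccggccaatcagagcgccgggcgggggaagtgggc
A match of this kind is a description of letters and no evidence of binding.

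All 6 PRC2 members had a log2 difference below 0 in their chosen probe sets, with a median of -0.75, but JARID2 and PHF19 lay within the probe set SD and only EED passed 2-fold. EED, the subunit that reads the methyl mark and stimulates the enzyme, read 5826 on the non-target array and 2221 on the FOXM1 siRNA array, 2.62-fold lower. A further EED probe set was above the floor on the non-target array only, at 334 against 42.9, and so also lower. SUZ12, which holds the core together, read 6893 and 3763, at -0.87. EZH2, the methyltransferase of dividing cells, had a single probe set at 3274 and 1893, a log2 difference of -0.79. Its relative EZH1, which prevails in resting tissue, differed about as much, at 702 and 426 (-0.72), but its 4 probe sets above both floors ran from -0.93 to 0.43. Both enzymes thus lay on the same side in the probe sets chosen, and that of EZH1 rests on probe sets that disagree. Among the accessory subunits, JARID2, which helps to recruit the complex, read 1312 and 1031 (-0.35), with another probe set at -0.92. PHF19, which binds a methyl mark of active genes, read 1015 and 932 (-0.12), a difference within the probe set SD, and 1 of its 3 probe sets was at 0.43.

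PRC1 members went both ways. Their median was -0.13 over 7 measured genes of 10, with 4 below 0 and 3 above. CBX2, a chromobox subunit that also compacts chromatin, read 1306 on the non-target array and 146 on the FOXM1 siRNA array, 8.98-fold lower. Its other probe set above both floors gave -0.78, and with the median over all its probe sets CBX2 stood at -0.79, under 2-fold. CBX7, a chromobox subunit linked to growth and self-renewal, went the other way at 380 and 544 (0.52). CBX6 read 1831 and 1503 (-0.28), and its second probe set had the opposite sign at 0.41. The polyhomeotic subunits, which join PRC1 complexes into larger assemblies, split. PHC1 was lower in both its probe sets, reading 959 and 576 in the brighter one (-0.74) and giving -0.92 in the other. PHC2 was 3.98-fold higher, at 1090 and 4335, and its second probe set above both floors gave 1.74. Another PHC2 probe set exceeded the floor on the FOXM1 siRNA array only, at 43.4 against 132, in the same direction. PHC3 read 1130 and 2681 in its brightest probe set, 2.37-fold higher, whereas the other 2 probe sets above both floors gave -0.03 and -0.53. PHC3 was at 0.35 with the median over all its probe sets, at 0.17 with those above at least 1 floor, and at 0.94 with hybridisation controls set equal, so its call rests on 1 probe set. RING1, a ubiquitin ligase subunit, hardly differed at 1301 and 1193 (-0.13).

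SWI/SNF members were mostly lower, 10 of 13, with a median of -0.56. The 2 at least 2-fold lower made up 15.4% of them, near the 15.9% among all detected genes with a difference. SMARCC1, a scaffold on which the complex is built, was the clearest of them. It read 7373 on the non-target array and 1975 on the FOXM1 siRNA array, 3.73-fold lower, and all 4 of its probe sets ran from -2.31 to -1.27. Its relative SMARCC2 read 1459 and 1147 (-0.35), with another probe set at -0.09. PBRM1, which marks the form of the complex called PBAF, read 2738 and 981, 2.79-fold lower. Its 4 probe sets above both floors ran from -1.66 to -0.12, and the value of -0.12 came from the single one whose name does not end in _s_at or _x_at, endings that mark probes shared by several transcripts. ARID2, the other defining PBAF subunit, read 697 and 473 (-0.56), and its 3 probe sets above both floors agreed, from -0.73 to -0.56. Of the ARID1 subunits of the BAF form, ARID1A read 1858 and 1833 (-0.02) and ARID1B 1340 and 859 (-0.64). Of the 6 probe sets of ARID1B above both floors 4 were below 0 and 2 above, one of them at 0.94, so its direction is unsettled.

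The catalytic subunits had log2 differences of opposite sign, that of SMARCA2 within the probe set SD. SMARCA4 (BRG1) read 4716 and 2647, a log2 difference of -0.83, and its 7 probe sets above both floors were all below 0, from -0.91 to -0.08. SMARCA2 (BRM), the alternative ATPase, read 1191 and 1479 (0.31), and its 5 probe sets were all above 0, from 0.31 to 1.12. The chosen SMARCA2 value fell to 0.16 with median centring and to 0.01 with hybridisation controls set equal, so its direction depends on the scaling. Neither gene reached 2-fold in the chosen probe set, yet no probe set of one overlapped the other. The core subunit SMARCE1 read 6142 and 3412 (-0.85), with 1 of 4 probe sets above 0, at 0.41. SMARCB1, a tumour suppressor of rhabdoid tumours, read 731 and 426 (-0.78), and its second probe set, close to the floor, gave 0.41. The SMARCD subunits, which link the complex to transcription factors, differed by less than the probe set SD: SMARCD1 by 0.16, SMARCD2 by -0.44 and SMARCD3 by 0.27 on the log2 scale. In ISWI, the ATPase SMARCA1 read 1263 and 2739, 2.17-fold higher, and its 3 probe sets above both floors lay between 0.91 and 1.12. SMARCA1 was under 2-fold with median centring (0.96), with hybridisation controls set equal (0.81) and, barely, with the median over all its probe sets (0.997). SMARCA5, the ISWI ATPase of dividing cells, read 2783 and 2097 (-0.41), and its 3 probe sets lay between -0.63 and -0.39.

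**Figure D2:**
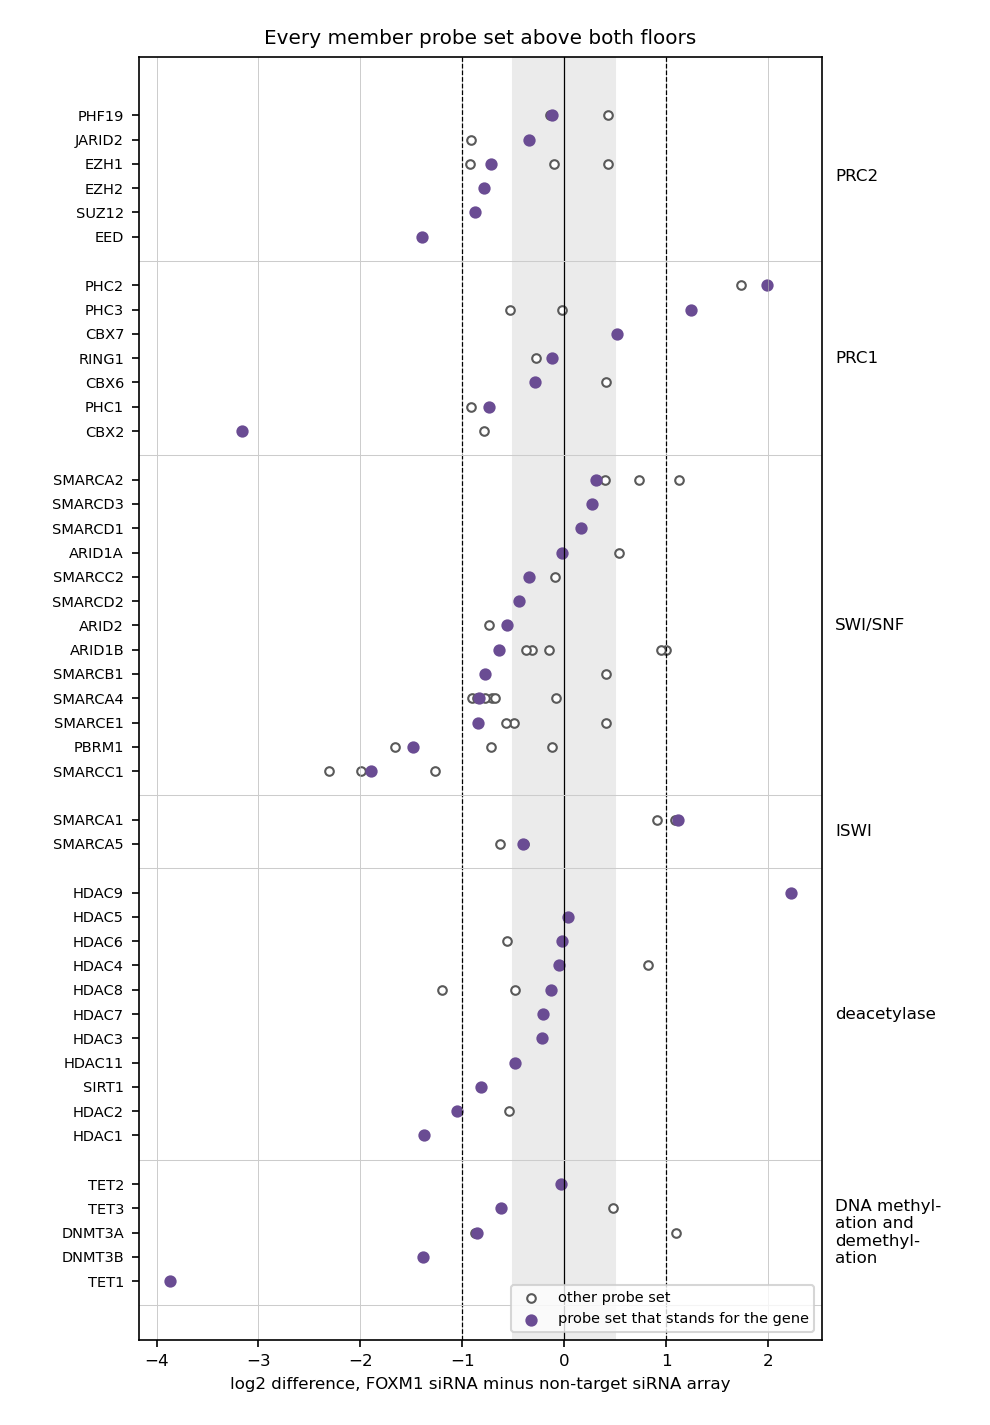
Log2 difference (FOXM1 siRNA minus non-target siRNA array) of each of the 98 member probe sets above both floors, 1 row per gene; filled points stand for the gene, open points are its other probe sets. The grey band is the probe set SD of 0.50 either side of 0 and dashed lines mark 2-fold; the probe sets of SMARCC1 (-2.31 to -1.27) and SMARCA1 (0.91 to 1.12) lie together, those of PHC3 and DNMT3A on both sides of 0.

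Among the deacetylases, the class I enzymes HDAC1 and HDAC2 were lower and the class IIa enzyme HDAC9 higher, while the others differed by less than 2-fold. HDAC1, a catalytic subunit of the SIN3, NuRD and CoREST corepressor complexes, read 15139 on the non-target array and 5842 on the FOXM1 siRNA array in its single probe set, 2.59-fold lower. HDAC2, its partner in the same complexes, read 16030 and 7715, 2.08-fold lower, and its second probe set gave -0.55. With the median of both probe sets HDAC2 was at -0.80, under 2-fold. HDAC3, the enzyme of the NCoR complexes, read 1731 and 1490 (-0.22). HDAC8 read 431 and 393 (-0.13), but another of its probe sets read 592 and 259 (-1.19). The class IIa enzymes carry signals to MEF2 factors and have little catalytic activity of their own. Of these, HDAC9 read 233 and 1086, 4.66-fold higher. A pair of further HDAC9 probe sets exceeded the floor on the FOXM1 siRNA array only, at 29.0 against 133 and 19.4 against 102, in the same direction. With the median over all its probe sets HDAC9 was at 0.75, under 2-fold. HDAC4 (-0.05), HDAC5 (0.04) and HDAC7 (-0.20) stayed within the probe set SD, although another probe set of HDAC4 gave 0.82. HDAC6, a cytoplasmic tubulin deacetylase, read 465 and 459 (-0.02), with another probe set at -0.56. HDAC11 read 285 and 204 (-0.49). SIRT1, an NAD-dependent deacetylase, had 1 probe set at 1999 and 1135 (-0.82).

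Among the DNA methylation and demethylation enzymes, 4 of 5 were lower by more than the probe set SD in their chosen probe sets and TET2 lay within it. Their median was -0.86. The share of all genes lower by more than that SD was not computed. TET1 had the largest difference of the 44 measured members. It read 1815 on the non-target array and 124 on the FOXM1 siRNA array, 14.6-fold lower, and its other probe set exceeded the floor on the non-target array only, at 247 against 48.5. TET2 did not follow it, at 635 and 620 (-0.03), and was at 0.04 after the loess scaling. TET3 read 837 and 544 (-0.62), with a second probe set of opposite sign at 0.48, and was at 0.35 with the median over all its probe sets. DNMT3B, the de novo methyltransferase of early development and many tumours, read 913 and 350 in its single probe set, 2.61-fold lower. DNMT3A read 549 and 303 (-0.86), and a second probe set agreed at -0.88, while another, with 82.6 and 176, gave 1.10. TET1 thus stood far from TET2, and both DNMT3 genes lay on the lower side in their chosen probe sets.

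Related genes within a complex often differed by unlike amounts. Set side by side were 11 pairs, chosen after their values were seen, so that this is a description without a test. Only 5 pairs had at least 2 probe sets above both floors for each gene. Probe set ranges lay apart for PHC1 and PHC2, 6.63-fold apart in their ratio between the arrays, SMARCC1 and SMARCC2 (2.93-fold), SMARCA5 and SMARCA1 (2.88-fold) and SMARCA4 and SMARCA2 (2.21-fold). In each the first-named gene was the lower one. The ranges of ARID1B and ARID1A overlapped. How often ranges lie apart among all gene pairs was not computed. In the other pairs at least 1 gene had a single probe set above both floors. The largest gaps among them were 14.3-fold for TET1 and TET2, 12.9-fold for CBX2 and CBX7 and 4.54-fold for HDAC5 and HDAC9. DNMT3B and DNMT3A were 1.44-fold apart, and the DNMT3A probe sets ran from -0.88 to 1.10. EZH2 and EZH1 (1.05-fold) and HDAC1 and HDAC2 (1.25-fold) differed from each other by less than the probe set SD. A change of scaling by a constant shifts both genes of a pair alike and leaves these gaps as they are.

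**Figure D3:**
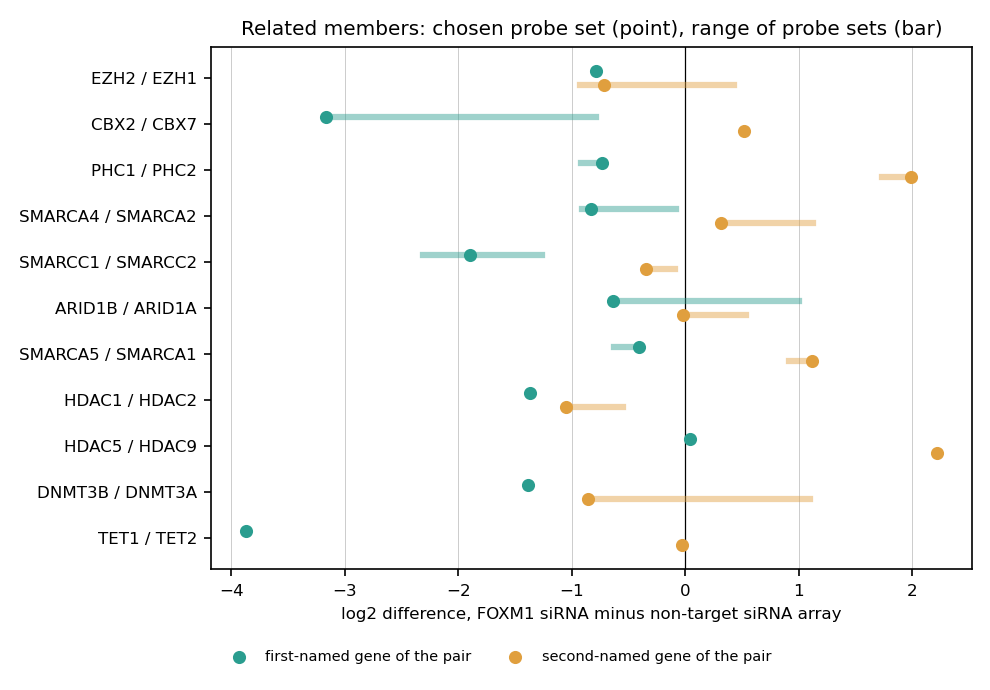
Log2 differences (FOXM1 siRNA minus non-target siRNA array) of 11 pairs of related members: points are the probe sets that stand for the genes, bars the range over probe sets above both floors. The bars lie apart for PHC1 and PHC2, SMARCA4 and SMARCA2, SMARCC1 and SMARCC2, and SMARCA5 and SMARCA1, and overlap for ARID1B and ARID1A.

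The partners of these proteins, a list of 87 further genes of the same complexes, were lower too. Of 79 with a difference, 20 were at least 2-fold lower, or 25.3%, and 4 at least 2-fold higher, or 5.06%, beside the shares of 15.4% and 16.0% above. Their median was -0.41. Among PRC2 partners 4 of 6 were lower by 2-fold or more, and 0 higher. MTF2, which recruits PRC2 to CG-rich DNA, read 4146 and 645, 6.43-fold lower, and its 5 probe sets ran from -2.80 to -2.51. EPOP, another accessory subunit, was 3.12-fold lower, at 449 and 144. The histone-binding proteins RBBP4 (2.41-fold) and RBBP7 (2.33-fold), shared by PRC2 and the deacetylase complexes and named after their values were seen, made up the rest. The 6 probe sets of RBBP4 above both floors ran from -1.85 to 0.08. Of 13 PRC1 partners 4 were lower and 1 higher. BCOR, a corepressor of a variant PRC1, was 3.92-fold lower, at 2842 and 725, and its 3 probe sets ran from -1.97 to -1.77. PCGF6 was 3.75-fold lower, and PCGF5 was 2.14-fold higher although its 4 probe sets ran from -0.51 to 1.09.

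The partner groups of the other complexes are small, and their counts stand beside the same shares of all detected genes, 15.4% lower and 16.0% higher. In the remodelling complexes, BCL7A and PHF10 of SWI/SNF were 5.86-fold and 3.05-fold lower and BCL7B was 2.28-fold higher, the 3 past 2-fold among 14 partners. Of 7 ISWI partners 3 were lower. CECR2, a bromodomain partner of the ISWI ATPases, read 1566 on the non-target array and 75.3, below the floor, on the other, and so was at least 20.1-fold lower. BAZ1A, a subunit of the ACF complex, was 3.28-fold lower, at 4166 and 1270. Of 24 deacetylase partners 2 were lower and 2 higher, 8.33% in each direction and so below both shares. Those were the mitochondrial sirtuin SIRT5 (3.25-fold) and the corepressor TBL1X (2.07-fold) on the lower side, and the methyl-DNA binding protein MBD2 (2.09-fold) and SIRT2 (2.02-fold) on the higher side. The 3 SIRT5 probe sets above both floors ran from -1.70 to 0.65. Around DNA methylation, the glycosylase TDG, which removes the products of TET enzymes, read 7415 and 2097, 3.54-fold lower, and the methyl-DNA reader ZBTB33 7336 and 2482, 2.96-fold lower. The maintenance methyltransferase DNMT1, named after its values were seen, was 2.04-fold lower at 5678 and 2781. Of 6 opponents of Polycomb 2 were lower and none higher. These were KMT2A, a methyltransferase of active promoters (2.19-fold), and the demethylase KDM6A (2.01-fold).

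**Figure D4:**
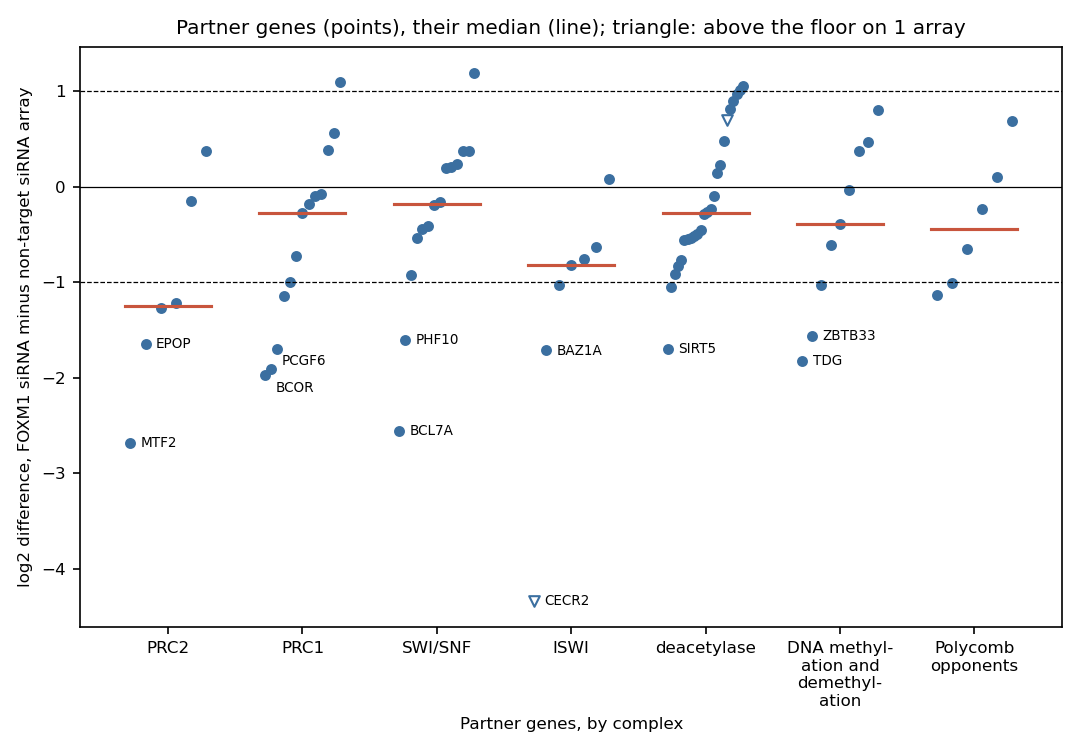
Log2 differences (FOXM1 siRNA minus non-target siRNA array) of the 79 partner genes with a difference, by complex; points are genes, red lines medians, dashed lines 2-fold, and open triangles genes above the floor on 1 array, whose value is a bound. The PRC2 partners have the lowest median, -1.25, and the SWI/SNF partners the highest, -0.17.

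Several of these genes are more strongly expressed in dividing cells, and so proliferation markers were read beside them. All 8 exceeded both floors, with summed intensities of 74001 on the non-target array and 62614 on the FOXM1 siRNA array. PCNA, a clamp of DNA polymerases, was the single marker past 2-fold, at 16577 and 8002. MCM2, a replication helicase subunit, read 6143 and 3171. Of the 8, 6 were below 0, with TOP2A at -0.49, CDK1 at -0.57, CCNA2 at -0.25 and TYMS at -0.12 on the log2 scale. RRM2, at 10381 and 18454, was higher (0.83), and MKI67, at 2198 and 2436 (0.15), lay within the probe set SD. By more than the probe set SD, PCNA, MCM2 and CDK1 were thus lower and RRM2 higher, while TOP2A, CCNA2, TYMS and MKI67 lay within it. The part of cell division in the values of EZH2, HDAC1 or DNMT1 was not tested.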

How the data were processed

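Total RNA of 2 samples was labelled with a 3′ IVT kit and hybridised to 1 array each. Per the labels' processing notes, the authors made the deposited intensity values with MAS5; no label names its version or settings. Both arrays had a trimmed mean of 500.07 (2% cut from either end), which shows scaling to a common target. No detection calls were used. Of 54675 probe sets, 41097 had 1 gene symbol in the platform annotation, brought up to date by gene ID (99.9%), and 1801 with several symbols named no gene. Intensities below the floor were raised to it before log2. A fold is on that scale. A gene above 1 floor only has a bound, and none where the bound was under 1.

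All members were named. Of the partner list, the rule named the 2 genes per complex and direction with the largest difference past 2-fold; others are marked. The members, lists, pairs and thresholds were chosen with earlier results of these data known. The calculation was tested on simulated data. Alternatives were 4 scalings (medians, quantiles, loess, hybridisation controls), no floor, a floor 2 times as high, a common floor, a pseudocount of 50, for each gene the median over all probe sets, leaving out _x_at and _s_at probe sets, members above both floors, and a 1.5-fold threshold. The median over probe sets above at least 1 floor was added after seeing the data. Python 3.11.15, numpy 2.4.6 and pandas 2.3.3 were used.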

Additional observations from a re-analysis of the deposited data

How the results depend on the processing

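No paired analysis was possible because each group holds 1 array. With the hybridisation controls set equal, 2 members were at least 2-fold higher and 17 lower, and 0 partner genes were higher. Of 13810 genes, 1567 were higher and 3200 lower. Median centring left 1 partner gene at least 2-fold higher, beside 1850 of 13618 genes. With the median over all probe sets of a gene, 1 member was at least 2-fold higher and 13 partner genes were lower. Of 13449 genes, 1761 were higher and 1483 lower with that median. Restricting that median to probe sets above at least 1 floor was decided after seeing those values, and gave 3 and 15. Among all genes 2124 were then higher and 1822 lower. Without _x_at and _s_at probe sets, 11 partner genes were at least 2-fold lower, among fewer genes tested, beside 1662 of 10623 genes in all. At a 1.5-fold threshold 19 members were lower, 10 partner genes higher and 31 lower, beside 3714 lower and 3623 higher of 13449 genes. The other 102 of 112 comparisons of a count or a complex median with its alternative stayed within 1.5 times the count or within the probe set SD. Some of these could not move. All measured members exceeded both floors, so leaving the floor out or using a common floor left their values unchanged. The SD of single probe sets is also a wide limit for a median, which could change sign within it. The PRC1 median changed sign, to 0.06 with either median over probe sets and to 0.20 without _x_at and _s_at probe sets. Of the 12 members past 2-fold, 6 stayed past it wherever they had a value among 11 alternatives. DNMT3B had none without _x_at and _s_at probe sets. The other 6, CBX2, PHC3, PBRM1, SMARCA1, HDAC2 and HDAC9, lost it in at least 1, with the values given above. For the 6 that stayed, some runs could not undo the call. Median centring and equal hybridisation controls lowered every member by a constant, which leaves a lower call in place. HDAC1 and DNMT3B have 1 probe set each, so a median over probe sets left them unchanged. The number of arrays limits the precision.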
